A study of Homo sapiens with 24 samples.

Results

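In 4 human breast cancer lines 9 genes were described: 5 genes chosen for a shared fall after ADAR1 knockdown, and 4 genes set beside them for comparison. The 5 were chosen from these data, because their counts were called lower in at least 3 of the 4 lines (edgeR quasi-likelihood test, adjusted p under 0.05). They were ANTXR1, AIDA, DESI2, PEG10 and ISOC1. Their comparators were 3 paralogs, ANTXR2, DESI1 and ISOC2, and SGCE, which is no paralog of PEG10 but its neighbour on chromosome 7. All 9 were among the 37416 genes listed, and all 9 were among the 21352 that passed the filter on low counts. By that rule 8 genes in all were called lower in 3 or more lines, and 59 in exactly 2, where 0.342% (BT549), 0.0141% (HCC1806), 1.37% (MDAMB231) and 0.0328% (MDAMB468) of all genes tested were called lower. The 8 include ADAR, the gene targeted by the knockdown, so the 5 chosen genes are a part of them. The edgeR adjusted p nearest the threshold was 0.0348 inside it (ISOC1 in HCC1806) and 0.201 outside it (ISOC1 in MDAMB468). Because these counts chose the 5 genes, their falls are a description with no test, and tests are given only for the comparators and for levels in the control arm.

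The lines were BT549, HCC1806, MDAMB231 and MDAMB468. Each carried a lentiviral short hairpin RNA, either against ADAR1 (shADAR1) or non-targeting (shNT), so both arms had 24 h of infection with protamine sulfate (10 µg/ml), followed by 72 h under puromycin (2 µg/ml). There were 3 biological replicates in each of the 8 groups, or 24 libraries, with 10370645 to 97218217 counts each. The labels do not say whether replicates were infected separately, so p-values measure the spread between these libraries, which may be partly technical. A single shADAR1 label is used, so loss of ADAR1 and any other action of the hairpin cannot be told apart. Nor can less RNA per cell be told apart from fewer cells holding it in bulk RNA. ADAR, the gene that encodes ADAR1, stood at 26.1%, 33.1%, 21.9% and 37.1% of control in BT549, HCC1806, MDAMB231 and MDAMB468, with no overlap between arms. Of the epithelial and basal markers EPCAM, CDH1, KRT8, KRT18, KRT5, KRT14 and KRT17, all were at 6.55 RPKM (read count scaled to gene length and library total) or more in HCC1806 and MDAMB468, whereas in BT549 the highest value was 0.242 RPKM. MDAMB231 was mixed, with KRT8 at 90.6 to 111 RPKM, KRT18 at 63.7 to 89.7 and EPCAM at 2.65 to 4.23, but CDH1 at most 0.0625, KRT5 at most 0.0133, KRT14 at most 0.254 and KRT17 at most 0.646. In the 4 lines PTPRC, the leukocyte marker, reached 0.0951 RPKM at the highest.

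Paralogs are genes that arose by duplication of a common ancestor and often keep related functions, so the loss of one may be covered by the other. ANTXR1 and ANTXR2 are the anthrax toxin receptors, single-pass membrane proteins with an extracellular von Willebrand factor A domain that bind matrix proteins such as collagens. DESI1 and DESI2 belong to the PPPDE family of cysteine peptidases, named for removing SUMO, a ubiquitin-like modifier, from proteins. ISOC1 and ISOC2 hold an isochorismatase domain, and their cellular roles are less well known. PEG10 is an imprinted gene derived from a retrotransposon, expressed from the paternal allele, whose protein resembles retroviral Gag. SGCE encodes epsilon-sarcoglycan, a membrane protein of the dystrophin-associated complex, and is also paternally expressed. AIDA, the axin interactor, counters the activation of JNK kinase signalling by axin, and no paralog was set beside it.

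The genes lie at separate loci except for PEG10 and SGCE. By the files' coordinates, ANTXR1 (ENSG00000169604) spans chromosome 2, 69013178 to 69249327, plus strand, and ANTXR2 (ENSG00000163297) chromosome 4, 79901149 to 80125454, minus strand. AIDA (ENSG00000186063, 222668013 to 222713210, minus strand) and DESI2 (ENSG00000121644, 244652935 to 244709033, plus strand) are both on chromosome 1. DESI1 (ENSG00000100418) is on chromosome 22, 41598028 to 41621096, minus strand. SGCE (ENSG00000127990, chromosome 7, 94585230 to 94656209, minus strand) and PEG10 (ENSG00000242265, chromosome 7, 94656325 to 94669695, plus strand) run in opposite directions, and their listed starts are 116 bases apart. ISOC1 (ENSG00000066583) is on chromosome 5, 129094751 to 129114028, plus strand, and ISOC2 (ENSG00000063241) on chromosome 19, 55452985 to 55462343, minus strand. The build is not given in the sources used here. Of the 9 genes, 8 had the same start and end as in GENCODE 29 on GRCh38, the exception being SGCE.

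The paralogs share only short exact stretches of sequence. In GENCODE 29 transcripts the longest exact stretch shared by ANTXR1 and ANTXR2 was 26 bases, and their longest coding sequences were 63.7% identical over 1444 aligned bases. The longest shared stretch was 12 bases for DESI2 and DESI1 (61.1% identity over 460 aligned bases) and 11 bases for ISOC1 and ISOC2 (65.4% over 615 aligned bases). AIDA shares 185 bases of listed exon with BROX on the opposite strand. BROX had a mean count of 4134 against 1850 for AIDA, and strand use in counting is not given in the sources used here, so reads of the 2 genes cannot be told apart over those bases, and their part in the AIDA values was not tested.

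A short sequence differs between the members of the ANTXR and DESI pairs, but not of the ISOC pair. The 7 bases ATCTTCA occur 1 time in the ADAR 3′ UTR and had been found in earlier work on these data in the 3′ UTRs of several genes that were lower, so their presence is a description. Across the longest annotated 3′ UTRs of 19193 protein-coding genes, 13.3% hold it. Among the 5 chosen genes it was found in 4: in PEG10 4 times, in DESI2 3 times, in ANTXR1 2 times and in AIDA 1 time. ISOC1 had no match in a 3′ UTR of 1027 bases. Among the comparators ANTXR2, DESI1 and ISOC2 had none, although the 3′ UTR of ANTXR2 is the longest of the 9 at 6280 bases. SGCE had 1 match, but only 2 of its 45 annotated coding transcripts have a match in the 3′ UTR. The same count was 1 of 4 transcripts for ANTXR1, 1 of 2 for AIDA, 1 of 2 for DESI2 and 4 of 6 for PEG10, so in these genes too other annotated transcripts lack the match there. Of genes whose 3′ UTR differs in length by at most 20% from that of the named gene, 37% hold a match for PEG10, 28.6% for ANTXR1, 25.4% for DESI2 and 14.4% for AIDA. For the genes with no match the shares were 45.4% (ANTXR2), 24.3% (DESI1), 7.46% (ISOC1) and 2.79% (ISOC2), and for SGCE 16.9%. The matches are shown with the flanking transcript bases of GENCODE 29 (GRCh38), the 7 bases in capitals, so that the flanks can be compared with those in ADAR. All places in ANTXR1, AIDA and SGCE are shown, and in DESI2 and PEG10 the place with the most bases in common with ADAR.
ADAR, chr1:154582424-154582430, minus strand: tgcccactgttATCTTCActttctttgtcc
DESI2, chr1:244708943-244708949, plus strand: aaataccaggaATCTTCActtttgctacct
ANTXR1, chr2:69248048-69248054, plus strand: aacaaggtgatATCTTCAtagtgggctatt
ANTXR1, chr2:69249035-69249041, plus strand: gatagttatggATCTTCAatgcctctgagt
AIDA, chr1:222669555-222669561, minus strand: aggatgtgctcATCTTCAgacttaatacag
PEG10, chr7:94667703-94667709, plus strand: tcatcctgttcATCTTCAattttaacatca
SGCE, chr7:94588594-94588600, minus strand: tatgaagctttATCTTCAccaaataaggca
The coordinates are those of the capitals. The longest unbroken run shared with the ADAR site was 11 bases, at the DESI2 place shown. It was 10 bases in SGCE, 8 at the first ANTXR1 place, and 7 at the second ANTXR1 place and at those in AIDA and PEG10 shown. A second 7-base sequence from the earlier work, GTGGGCC, was in no 3′ UTR of the 9 genes, against 9.57% of all those 3′ UTRs.

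ANTXR1 was lower in every shADAR1 library than in any shNT library of its own line. Over all genes and lines tested, 5.23% had arms separated in that direction. Levels are TMM-scaled CPM (counts over the scaled library total), given for replicates 1, 2 and 3. In BT549 they were 199, 206 and 178 CPM in shNT and 88.7, 86.1 and 86.1 CPM in shADAR1. MDAMB231 had 117, 125 and 132 CPM in shNT and 35.7, 42.5 and 45.4 CPM in shADAR1. The remaining level in those lines was 44.8% and 33.1% of control (log2 fold change -1.16, SE 0.103, and log2 fold change -1.59, SE 0.105). MDAMB468 went from 77.9, 74.6 and 74.7 CPM in shNT to 35.3, 44.04 and 45.9 CPM in shADAR1, or 55.2% of control. In HCC1806, the line with the lowest ANTXR1, the arms were closest, with 26.5, 23.9 and 21.2 CPM in shNT and 19, 17.5 and 18.2 CPM in shADAR1 (log2 fold change -0.38, SE 0.105). That was the line in which ANTXR1, AIDA, DESI2 and PEG10 were not called. With the replicate number as a block in the fit they were called there too, where 5.07% of all gene and line tests were called. That fit uses the same counts that chose the genes, so its calls are a description and no test of the fall.

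ANTXR2 was lower in the shADAR1 libraries of BT549 and MDAMB231, and nearly absent from MDAMB468. In BT549 it stood at 37.99, 40.7 and 45.99 CPM in shNT and 32.05, 32.3 and 33.1 CPM in shADAR1, without overlap. MDAMB231 held by far the most, 389, 323 and 365 CPM in shNT and 298, 264 and 310.1 CPM in shADAR1, again without overlap. The log2 fold changes were -0.35 (95% interval -1.03 to 0.33) and -0.30 (-0.98 to 0.37). Neither passed the edgeR test (adjusted p 1 and 0.827), but both did with the replicate number as a block in the fit (adjusted p 0.00105 and 0.00125, log2 fold changes -0.35 and -0.30). In HCC1806 replicates 1, 2 and 3 were at 51.3, 84.1 and 24.7 CPM in shNT and at 49.9, 82.04 and 21.7 CPM in shADAR1. Same-numbered libraries were close to each other there, whereas the replicates of an arm spread more than 3-fold. MDAMB468 had almost no ANTXR2, with 11, 11 and 32 counts in shNT and 10, 18 and 24 in shADAR1, too few for a change of moderate size to be detectable. The log2 fold change there was -0.26 (95% interval -1.77 to 1.26). In HCC1806 it was -0.063 (95% interval -0.74 to 0.62) without the block and -0.086 with it (edgeR adjusted p 0.631). Averaged over the lines the effect was -0.24 (-0.72 to 0.24, edgeR adjusted p 0.779), and -0.25 with the block (edgeR adjusted p 0.0174). The average of ANTXR1, given as a description, was -0.998 (SE 0.0519).

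**Figure D1:**
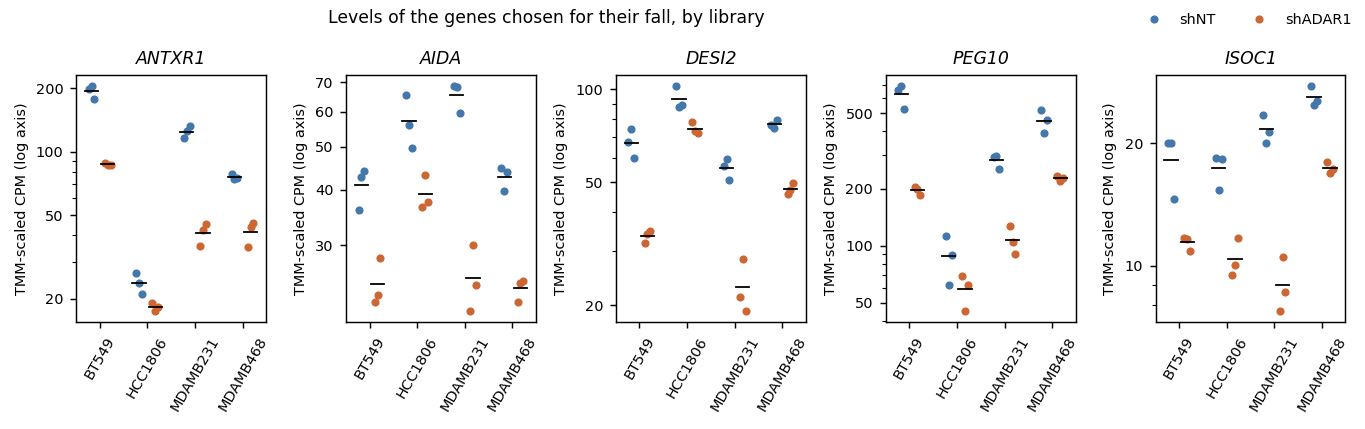
TMM-scaled CPM (log axis) of the 5 genes chosen for their fall, 1 point per library and a bar at the mean of 3, in shNT and shADAR1 of 4 lines. In 19 of the 20 gene and line panels every shADAR1 point lies below every shNT point, the exception being PEG10 in HCC1806.

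AIDA had 68.7, 68.4 and 59.6 CPM in shNT and 21.3, 29.99 and 24.4 CPM in shADAR1 of MDAMB231, which is 38.7% of control (log2 fold change -1.37, SE 0.131). In the other lines more of it remained. MDAMB468 held 44.8, 39.8 and 43.9 CPM in shNT and 22.3, 24.7 and 24.9 CPM in shADAR1, or 56.05%. BT549 held 36.02, 42.7 and 44.1 CPM and 22.3, 23.1 and 28.01 CPM in the same order, or 59.8%. Arms of AIDA did not overlap in any line. HCC1806, at 65.4, 56.1 and 49.7 CPM in shNT and 36.6, 43.2 and 37.5 CPM in shADAR1, kept the most (68.6%, log2 fold change -0.54, SE 0.127).

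For the DESI pair the peptidase gene DESI2 was lower after knockdown and DESI1 was not called in any line without the block. In BT549 DESI2 stood at 67.5, 74.3 and 60.1 CPM in shNT and 31.7, 33.95 and 34.9 CPM in shADAR1 (log2 fold change -1.01, SE 0.113). MDAMB231 had 56.7, 59.4 and 50.9 CPM in shNT and 21.3, 28.3 and 19.2 CPM in shADAR1 (log2 fold change -1.27, SE 0.116). Those were the lines with the least DESI2 left, 49.8% and 41.3% of control. MDAMB468 had 76.5, 75.2 and 79.4 CPM in shNT and 45.9, 47.2 and 49.6 CPM in shADAR1. HCC1806 had 103, 87.9 and 88.96 CPM in shNT and 78.5, 73.5 and 72.01 CPM in shADAR1. In these lines 61.8% and 80.1% of control remained, and in no line did the arms overlap.

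DESI1 was at 43.3 to 48.5 CPM in shNT and 44.4 to 47.8 CPM in shADAR1 of BT549, so that its arms overlapped. They overlapped also in HCC1806, at 50.4 to 59.2 CPM in shNT and 49.9 to 58.2 CPM in shADAR1, and in MDAMB468, where DESI1 was highest, at 67.7 to 78.2 CPM in shNT and 74.02 to 79.2 CPM in shADAR1. In MDAMB231 DESI1 was higher in all 3 shADAR1 libraries, at 50.97, 55.96 and 47.4 CPM against 40.7, 46.1 and 41.7 CPM. Its log2 fold change there was 0.26 (95% interval 0.072 to 0.45), with an edgeR adjusted p of 0.19, and 0.26 with the block (edgeR adjusted p 0.00854). In the other lines the log2 fold change was -0.0064 (95% interval -0.19 to 0.18) in HCC1806, 0.024 (95% interval -0.16 to 0.21) in BT549 and 0.079 (95% interval -0.11 to 0.27) in MDAMB468. On average the effect was 0.089 (-0.0043 to 0.18, edgeR adjusted p 0.421).

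PEG10 had the largest average difference of the 5 chosen genes. BT549 had 665, 696 and 522 CPM in shNT and 204, 198 and 184 CPM in shADAR1, or 31.1% of control (log2 fold change -1.68, SE 0.175). MDAMB231 had 293, 297 and 255 CPM in shNT and 127, 105 and 90.5 CPM in shADAR1, or 38.2%. In both lines the arms were far apart. MDAMB468 went from 517, 394 and 459 to 234, 220 and 228 CPM (49.8%). HCC1806 had 113, 62.3 and 89.1 CPM in shNT and 68.7, 45.3 and 62.03 CPM in shADAR1 (log2 fold change -0.58, SE 0.173). Replicate 2 was the lowest of both HCC1806 arms, and its shNT value lay below the shADAR1 value of replicate 1.

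SGCE, which starts 116 bases away on the other strand, was not called in any line. Its levels were 45.5 to 46.5 CPM in shNT and 45.2 to 50.4 CPM in shADAR1 of BT549, where PEG10 was most reduced. MDAMB231 had 33.5 to 39.1 CPM and 36.9 to 41.3 CPM in the same order. In MDAMB468 SGCE was at 15.9 to 18.7 CPM in shNT and 18.3 to 19.3 CPM in shADAR1, and in HCC1806 at 11.5 to 14.7 CPM in shNT and 12.4 to 19.7 CPM in shADAR1. The arms overlapped in all 4 lines. Its log2 fold changes were 0.028 (95% interval -0.23 to 0.29) in BT549, 0.10 (95% interval -0.17 to 0.37) in MDAMB231, 0.10 (95% interval -0.17 to 0.37) in MDAMB468 and 0.24 (95% interval -0.035 to 0.51) in HCC1806. The values were all above 0, and the average was 0.12 (95% interval -0.017 to 0.25, edgeR adjusted p 0.482). The average of PEG10 was -1.17 (SE 0.0868).

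By the calls that chose the genes, ISOC1 differed from the others in that HCC1806 was among its called lines and MDAMB468 was not. With the block it was called in MDAMB468 too, again on the counts that chose it and so as a description. A difference of its effect between lines was not tested. HCC1806 had 18.3, 15.4 and 18.3 CPM in shNT and 9.48, 10.1 and 11.7 CPM in shADAR1 (log2 fold change -0.73, SE 0.134), a value close to that of BT549, with 20, 19.97 and 14.6 and 11.7, 11.7 and 10.9 CPM (log2 fold change -0.67, SE 0.132). MDAMB468 had 27.6, 24.9 and 25.3 CPM in shNT and 17.9, 16.9 and 17.3 CPM in shADAR1 (log2 fold change -0.58, SE 0.132). Although ISOC1 was not called there without the block, that line's arms did not overlap either. In MDAMB231 the levels were 23.4, 20.03 and 21.4 CPM and 7.76, 10.5 and 8.62 CPM, or 41.9% of control.

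ISOC2 overlapped between arms in every line. It had 28.1 to 40.2 CPM in shNT and 29.1 to 37.7 CPM in shADAR1 of MDAMB231, the line with the least ISOC1 left. BT549 held the most ISOC2, at 47.2 to 63.7 CPM in shNT and 50.6 to 54.4 CPM in shADAR1. HCC1806 had 44.3 to 49.1 CPM in shNT and 43.6 to 44.97 CPM in shADAR1, and MDAMB468 had 20.8 to 28.7 CPM in shNT and 19.1 to 27.3 CPM in shADAR1. The log2 fold changes were -0.13 (95% interval -0.43 to 0.17) in BT549, -0.11 (95% interval -0.42 to 0.20) in MDAMB468, -0.05 (95% interval -0.35 to 0.26) in HCC1806 and 0.0083 (95% interval -0.30 to 0.32) in MDAMB231. The average of -0.069 had a 95% interval of -0.22 to 0.084 (edgeR adjusted p 0.825), against -0.81 (SE 0.0669) for ISOC1.

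**Figure D2:**
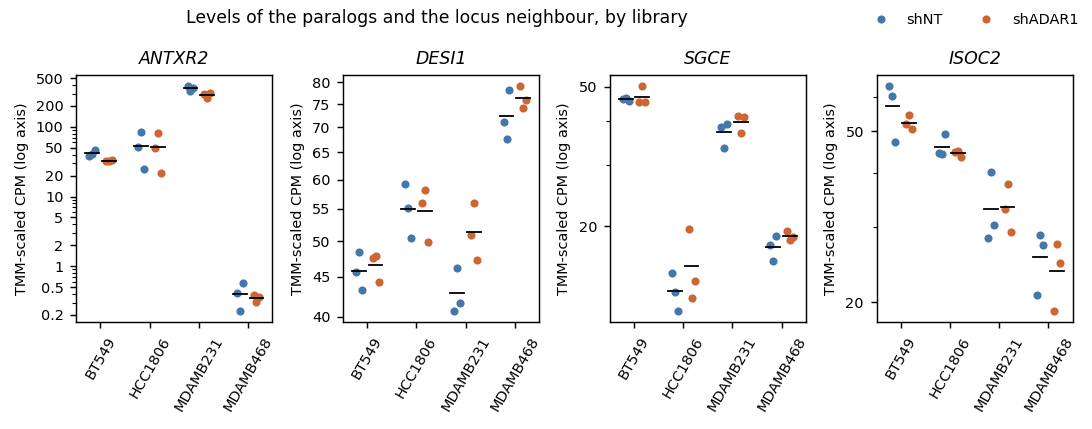
TMM-scaled CPM (log axis) of ANTXR2, DESI1, SGCE and ISOC2, 1 point per library and a bar at the mean of 3. The arms overlap in all lines except ANTXR2 in BT549 and MDAMB231, where shADAR1 is lower, and DESI1 in MDAMB231, where it is higher.

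Over the 4 comparators and 4 lines, the edgeR quasi-likelihood test called 0 of 16 effects, and 1 had an unadjusted p under 0.05. DESeq2 also called 0. The share of all gene and line tests called was 0.642%, so 0 of 16 is near the background and says nothing particular about these genes. With the block, 3 of 16 were called, the lower ANTXR2 in BT549 and MDAMB231 and the higher DESI1 in MDAMB231, against 5.07% of all gene and line tests. Arms without overlap were lower in shADAR1 in 2 of 16 and higher in 1, against 5.23% and 6.63% of all gene and line tests. For the 5 chosen genes 19 of 20 line effects had separated arms, a count that follows largely from how they were chosen. The size of the effect was not shown to differ between lines for any comparator: the joint edgeR test called 0 of 4, with 0 at an unadjusted p under 0.05, against 0.0234% of all genes called. DESeq2 called 0 as well, and the blocked fit called 0 with 2 at an unadjusted p under 0.05.

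**Figure D3:**
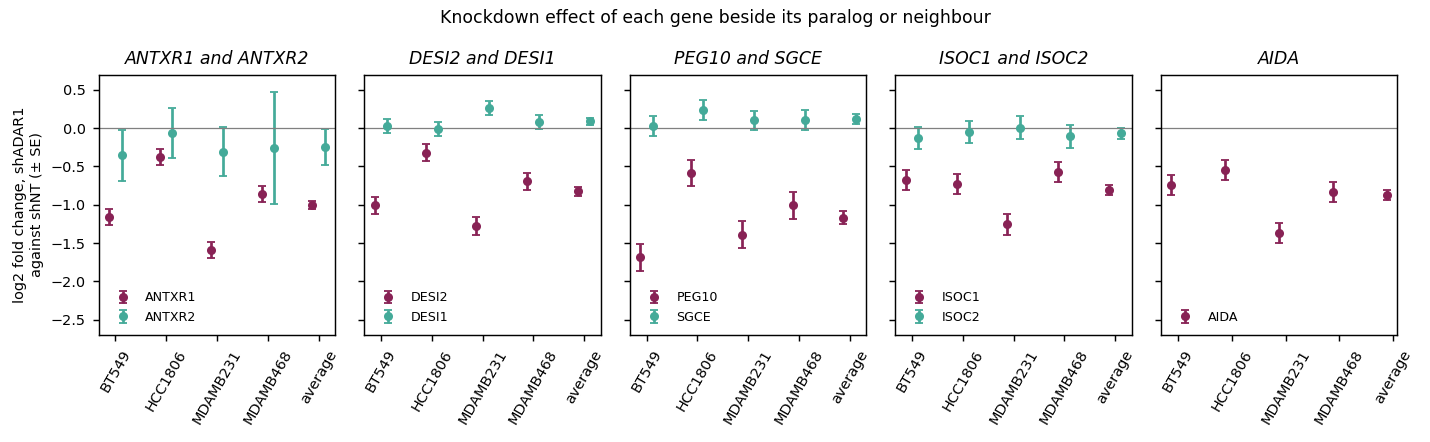
Log2 fold change of shADAR1 against shNT with its SE for each chosen gene (dark) and its comparator (light) in 4 lines and their average; AIDA has no comparator. The chosen genes lie between -1.68 and -0.32 in the lines, and the comparators between -0.35 and 0.26.

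Ratios within a library do not depend on how libraries are scaled. They were taken on deposited RPKM, which allows for gene length. DESI2 was above DESI1 in every shNT library but 1, the exception being replicate 3 of MDAMB468. The mean log2 ratio went from 0.51 in shNT to -0.51 in shADAR1 of BT549, from 0.34 to -1.22 in MDAMB231, from 0.056 to -0.72 in MDAMB468 and from 0.72 to 0.41 in HCC1806. In shADAR1 of the first 3 of these lines DESI1 was thus the more abundant of the pair. By RPKM ISOC1 and ISOC2 changed places in MDAMB231 alone, with a mean log2 ratio of 0.59 in shNT and -0.71 in shADAR1. That order rests on the listed lengths, 1940 bases for ISOC1 and 4408 for ISOC2. By counts ISOC1 was below ISOC2 in every MDAMB231 library (log2 ratio -0.26, -1.01 and -0.504 in shNT). PEG10 was above SGCE in all groups by the mean log2 ratio, which in MDAMB231 was 1.53 in shNT and 0.032 in shADAR1. Over the 4 pairs and 4 lines, every shADAR1 ratio lay below every shNT ratio in 13 of 16 cases. The upper gene of each ratio was chosen for its fall, so that count follows largely from the choice and is a description. The exceptions were ANTXR1/ANTXR2 in HCC1806 and MDAMB468 and ISOC1/ISOC2 in MDAMB468.

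**Figure D4:**
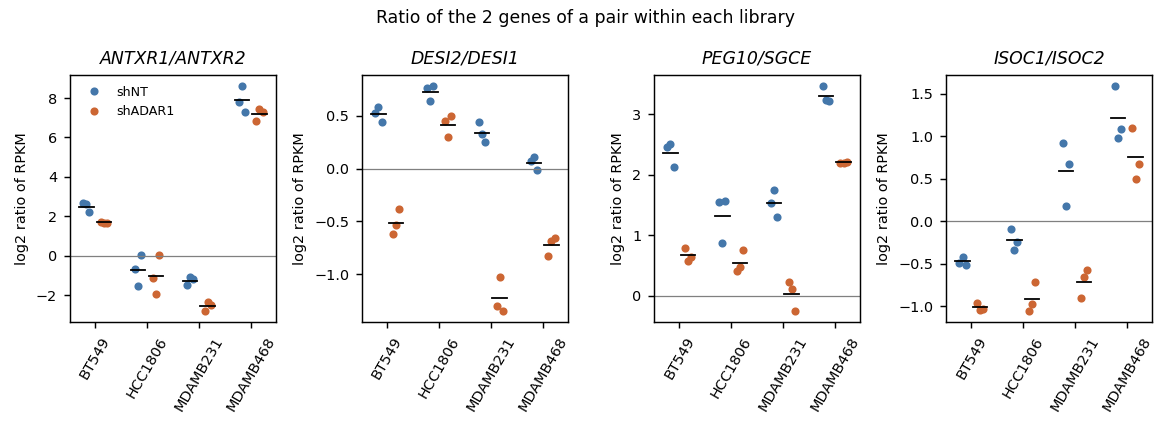
Log2 ratio of RPKM of the chosen gene over its paralog or neighbour in each library, with a bar at the mean of 3; the grey line marks equal levels. For DESI2/DESI1 the shADAR1 points of BT549, MDAMB231 and MDAMB468 lie below 0.

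The summed RPKM of each pair, which depends on the listed lengths, was compared between arms. PEG10 and SGCE are neighbours, so theirs is not the sum of a family. The sum of DESI1 and DESI2 in shADAR1 was lowest relative to shNT in BT549, at 70.9%, and reached 75.9% in MDAMB231, 82.4% in MDAMB468 and 88.4% in HCC1806. For ISOC1 and ISOC2 it was 79.4%, 65.3%, 74.1% and 80.7% in the same order. PEG10 and SGCE together were at 42.5%, 55.8%, 54.5% and 82%. The ANTXR sum differed between lines. It was 49.6% in BT549 and 54.7% in MDAMB468, where ANTXR1 was the main receptor, against 66.7% in MDAMB231 and 90% in HCC1806. ANTXR1 alone was at 33.1% of control in MDAMB231 and 76.8% in HCC1806. Whether the sum followed the mix of receptors or the size of the ANTXR1 fall was not tested. The sum was lower in all shADAR1 than in all shNT libraries of a line in 14 of 16 cases, the exceptions being the ANTXR and the PEG10 and SGCE sums in HCC1806. Because the chosen gene is part of each sum, this too is a description.

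Control levels were tested between lines. Differences between lines in the control arm did not choose the genes. The shNT counts of the 5 chosen genes did enter the effects that chose them. All 9 differed in the joint edgeR test over the 4 shNT groups (adjusted p from 3.56e-16 for ANTXR1 to 0.00108 for ISOC1), as did 85.9% of all genes tested, so such a difference is the rule. The anthrax toxin receptors were distributed differently. ANTXR1 was ordered BT549 (22.8 ± 0.904 RPKM, SD, n = 3), MDAMB231 (15.3 ± 0.646), MDAMB468 (10.1 ± 0.178) and HCC1806 (2.75 ± 0.269), and each step passed the edgeR test. ANTXR2 was highest in MDAMB231 (36.7 ± 4.67 RPKM), followed by HCC1806 (5.06 ± 2.72) and BT549 (4.07 ± 0.553), which did not differ (edgeR adjusted p 0.35). MDAMB468 had 0.0446 ± 0.0183 RPKM of ANTXR2, which by CPM is 103-fold below BT549. MDAMB468 thus had nearly all of its receptor RNA from ANTXR1.

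PEG10 and SGCE shared part of their order across lines. PEG10 stood at 90.1 ± 10.2 RPKM (SD, n = 3) in BT549, 74.7 ± 8.67 in MDAMB468, 42.3 ± 4.001 in MDAMB231 and 12.5 ± 3.65 in HCC1806. SGCE stood at 17.4 ± 0.472, 7.504 ± 0.494, 14.7 ± 1.57 and 4.84 ± 0.544 RPKM in the same lines. All 6 pairs of lines differed for each gene by the edgeR test, as 60.8% of all such tests did. Both were highest in BT549 and lowest in HCC1806, and MDAMB468 and MDAMB231 changed places. The listed exon lengths that RPKM divides by were 6689 bases for PEG10 and 2547 for SGCE.

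The other genes varied less between lines. By CPM in shNT the widest step between neighbours in the order was 1.33-fold for AIDA, 1.32-fold for DESI1, 1.21-fold for DESI2, 1.201-fold for ISOC1 and 1.398-fold for ISOC2. DESI2 was highest in HCC1806 and lowest in MDAMB231, with MDAMB468 and BT549 between them not differing from each other (edgeR adjusted p 0.139). DESI1 was highest in MDAMB468, followed by HCC1806, while BT549 and MDAMB231 did not differ (edgeR adjusted p 0.404). AIDA was highest in MDAMB231 and HCC1806, which did not differ, and lower in MDAMB468 and BT549, which did not differ either (edgeR adjusted p 0.185 and 0.686). No neighbouring lines differed for ISOC1, which was highest in MDAMB468 and lowest in HCC1806. ISOC2 ran the other way, with BT549 and HCC1806 highest (edgeR adjusted p 0.067 between them) and MDAMB468 lowest.

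**Figure D5:**
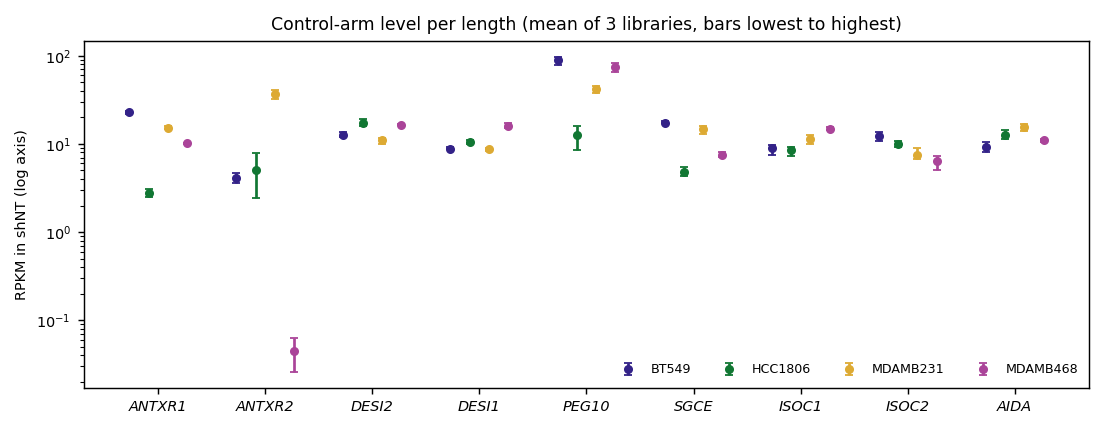
RPKM (log axis) of the 9 genes in the control arm of 4 lines, as means of 3 libraries with bars from the lowest to the highest. ANTXR2 spans the widest range, from 0.0446 RPKM in MDAMB468 to 36.7 RPKM in MDAMB231.

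Likeness was measured as Pearson's r over the 8 group means of log2 CPM, among 11000 genes whose log2 CPM averaged 2 or more. It takes in differences between arms as well as between lines. For the chosen genes the fall that chose them is thus part of it. AIDA, for example, had group means of 40.9 to 65.5 CPM in shNT and 23.97 to 39.1 CPM in shADAR1. The genes closest to each member are given as a description. They were ATP6V1C1 and MECR for ANTXR1 (r 0.977 and 0.976), ECI2 and PLAT for ANTXR2 (0.999 and 0.998), and RAB11FIP2 and UBE2N for AIDA (0.952 and 0.935). For DESI1 they were PGRMC1 and ATXN7L2 (0.992 for both), and for DESI2 NUDT1 and OAT (0.982 and 0.978). PEG10 was closest to AARS2 and ATXN10 (0.969 and 0.967), SGCE to ABCC4 and DECR1 (0.998 and 0.996), ISOC1 to SLC35A5 and FN3KRP (0.929 and 0.922), and ISOC2 to TMED10 (0.996). No member was among the closest genes named for another.

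Genes that work with the members or lie near them were examined in 6 lists, of which 70 genes were tested. In the average over lines 9 of the 70 were called by edgeR, 21 had an unadjusted p under 0.05, and 21 were called with the block, against 2.96% of all genes called without the block and 13.2% with it. Around the anthrax toxin receptors, 0 of 11 ligands and partners were called in the average or in any line (3 with an unadjusted p under 0.05 in the average), with a median log2 fold change of 0.024 against 0.018 for all genes. With the block 2 of them were higher and 2 lower in the average. In the SUMO cycle, of 13 genes 1 rose and 1 fell. SUMO3, a SUMO protein, fell by 0.36 (SE 0.0597, edgeR adjusted p 0.000525), and SENP5, a SUMO protease, rose by 0.18 (SE 0.0413, edgeR adjusted p 0.0158). By line the log2 fold change of SUMO3 was -0.82 in MDAMB231, -0.44 in BT549, -0.11 in HCC1806 and -0.081 in MDAMB468. That of SENP5 was 0.29, 0.36, -0.042 and 0.10 in the same order. With the block 4 of the list rose and 2 fell in the average. The list's median was 0.017.

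Of all 21352 genes tested, 269 were called higher and 363 lower in the average. Of 9 genes of axin and JNK signalling, 3 rose in the average and 0 fell. Among them were MAP2K7 (0.30, SE 0.0501, edgeR adjusted p 0.000633) and MAP2K4 (0.23, SE 0.0489, edgeR adjusted p 0.00629), the kinases that activate JNK, and the third was MAP3K1 (0.23, SE 0.0582, edgeR adjusted p 0.0296), an upstream kinase named here after its values were seen. By line MAP2K7 was at 0.65 in MDAMB231, 0.33 in BT549, 0.028 in HCC1806 and 0.19 in MDAMB468. MAP2K4 was at 0.28, 0.43, 0.079 and 0.14 in the same order. The list's median in the average was 0.049, and with the block 4 rose and 1 fell. In the sarcoglycan and dystrophin complex 3 of 14 fell and 0 rose in the average. All 3 were also called in MDAMB231, where 1.37% of all genes tested were called lower, and in no other line. DAG1, which encodes dystroglycan, fell by 0.27 (SE 0.0518, edgeR adjusted p 0.00293) and SGCB, beta-sarcoglycan, by 0.23 (SE 0.0486, edgeR adjusted p 0.00628), while SGCE itself was not called. The list's median was -0.041, and with the block 1 rose and 3 fell. Of 16 other genes derived from retrotransposon Gag, PNMA1 rose (0.19, SE 0.0486, edgeR adjusted p 0.0283) and 0 fell, with a median of 0.0022; with the block 2 rose. Among 7 other genes around PEG10 on chromosome 7, 0 were called in the average or in any line, with or without the block, and 1 had an unadjusted p under 0.05 in the average. PON1, PON3, DYNC1I1 and PDK4 among them had means of only 0.125, 0.805, 0.848 and 1.88 CPM. Their SE in the average was 0.439 to 0.709, so a change of moderate size was not detectable in them.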

How the data were processed

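The members and gene lists were chosen with earlier results of these data known. Per the labels, total RNA of 24 libraries was depleted of ribosomal RNA and sequenced. The submitters' processing notes name STAR 2.5.1a, featureCounts 1.4.6-p5 and edgeR, without roles; build, annotation and strand use are not given in the sources used here. The deposited files hold whole-number counts per gene, CPM (counts scaled to the library total) and RPKM (CPM per kilobase of listed length), per the file headers. Symbols came from a name table that matched 33972 of 37416 genes.

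Counts were filtered with filterByExpr (21352 genes kept), scaled by TMM (factors 0.924 to 1.12) and fitted with edgeR 4.0.16 in R 4.3.3, with 1 coefficient for each of the 8 groups; the common biological coefficient of variation was 0.176. Tests were 2-sided quasi-likelihood tests, with Benjamini-Hochberg adjustment over all genes tested and a threshold of 0.05. Intervals of 95% use the fold change, its SE and the fit's degrees of freedom. RPKM was used where genes are compared with each other. The main fit was tested on simulated data drawn without pairing of replicates, so that test does not cover the fit with the block. The text names all 9 members, ADAR, up to 2 called genes per list by smallest p, and the 2 genes most like each member, except for items that are not reported here.

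Replicate numbers are shared between arms. Deviations from group means of same-numbered libraries were correlated by 0.139 to 0.25 in BT549, 0.242 to 0.443 in HCC1806 and 0.149 to 0.348 in MDAMB231 over all genes tested, each over 0.1, so the numbers were read as pairs there. In MDAMB468 they were 0.165, 0.166 and 0.0651. Among genes whose log2 CPM averaged 2 or more they were higher, at 0.501 to 0.602 in BT549 and 0.683 to 0.811 in HCC1806. Over the same genes MDAMB231 had 0.384 to 0.759 and MDAMB468 0.255 to 0.416. The main fit and its intervals do not use these pairs, whereas the fit with the block does. Alternatives were other scalings (RLE, upper quartile), other filters, DESeq2 1.42.0, the replicate block, a line's own 6 libraries, and leaving out each library.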

Additional observations from a re-analysis of the deposited data

How the results depend on the processing

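The chosen genes were below control in all 20 line effects under every alternative. The alternatives reuse the counts that chose these genes, so that count follows largely from the choice and is a description. All 9 members differed between lines in the control arm under each alternative that could give that test. The replicate number as a block changed the calls: ANTXR2 passed in the average (log2 fold change -0.25, edgeR adjusted p 0.0174, against 0.467 or more under the other alternatives, where the highest was 0.996), 3 comparator effects in lines were called instead of 0, and 21 list genes instead of 9. With the paired fit no other comparator average was called, and DESI1, SGCE and ISOC2 were not called in the average by any alternative. On leaving out single libraries the average ran from -0.37 to -0.12 for ANTXR2, 0.065 to 0.15 for SGCE and -0.098 to -0.024 for ISOC2, SGCE in HCC1806 ran from 0.023 to 0.37, SGCE in MDAMB231 from 0.032 to 0.15 and in MDAMB468 from 0.034 to 0.15, DESI1 in MDAMB468 from 0.027 to 0.14, and ISOC2 in BT549 from -0.25 to -0.041. No comparator was called in a line when a library was left out. Signs near 0 turned on leaving out a library for ANTXR2 in HCC1806 (-0.58 to 0.44) and MDAMB468 (-0.58 to 0.20), DESI1 in BT549 (-0.014 to 0.069) and HCC1806 (-0.064 to 0.079), SGCE in BT549 (-0.026 to 0.056), and ISOC2 in HCC1806 (-0.075 to 0.0026), MDAMB231 (-0.096 to 0.18) and MDAMB468 (-0.23 to 0.016). Counts over all genes depended strongly on the fit: in the order BT549, HCC1806, MDAMB231 and MDAMB468 the counts of 101, 10, 429 and 8 became 1098, 448, 2434 and 354 with the block, 279, 40, 786 and 42 with DESeq2, and 226, 0, 117 and 21 in a line's own 6 libraries. With at least 10 counts in every library BT549 had 185 and MDAMB468 16, with no filter HCC1806 had 18, and leaving out a library gave 61 to 108, 4 to 15, 202 to 526 and 3 to 10. The average's 632 became 2820 with the block and 1045 with DESeq2. Depth limits ANTXR2 in MDAMB468, with at most 32 counts in a library.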
